A study of Mus musculus with 12 samples.

Results

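The MYC, MAX and MXD network is a family of transcription factors with a basic helix-loop-helix leucine zipper, and 9 of its genes were followed here: Myc, Mycn, Max, Mxd1, Mxd3, Mxd4, Mxi1, Mnt and Mga. They were taken by gene symbol from the 55450 genes of the deposited tables. All 9 were present once, and all 9 passed the low-count filter of the fits that give the results below; a stricter filter tried as an alternative (at least 1 CPM in 3 libraries) removed Mycn. RNA sequencing of mouse CD4 T cells gave 12 libraries in 4 groups of 3, made from Pkm2 knockout (KO) or wild type (WT) mice. The groups were KO stimulated, WT stimulated, KO resting and WT resting. All were kept for 24 hours (also labelled as overnight) in medium with 25 ng/mL human IL7, a cytokine that keeps resting T cells alive. Stimulated cells were in addition placed on wells coated with 1 ug/mL anti-CD3 and 2 ug/mL anti-CD28, antibodies that engage the T cell receptor and its co-stimulatory partner. RNA came from cells positively selected for CD4. The cells are described as naive T cells of spleen and lymph nodes in one place and as splenocytes in another, and neither the allele or driver of the knockout nor the age of the mice is given. Whether the 3 libraries of a group stand for separate animals is not stated, and the p-values below cover no more than the scatter among those libraries, possibly a technical one.

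MYC does not bind DNA alone. It pairs with MAX, and the pair binds the E-box sequence CACGTG and related sites, where it raises transcription of genes for ribosome assembly, nucleotide synthesis, glycolysis and cell cycle entry. MXD1, MXD3, MXD4, MXI1 and MNT compete with MYC for MAX, bind the same sites and bring the SIN3 co-repressor with its histone deacetylases. MGA is a much larger MAX partner that also carries a T-box domain and sits in a polycomb-type repressor complex with E2F6. In T cells, MYC is induced within hours of receptor engagement and is needed for growth and the switch to glycolysis. Only transcripts were measured here, and MYC protein is strongly controlled by its stability.

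Because the members recognise the E-box, the windows around the members' own transcription starts were searched for it. RefSeq windows (GRCm38.p6, 250 bases before to 50 bases after a start) were found for 8 members; Myc had no entry. CACGTG, which reads the same on both strands, lay in the windows of 3 members, Max, Mxd4 and Mnt, and in 2349 of all 32851 windows (7.15%). These 3 windows are shown because their genes differed between stimulated and resting libraries with opposite signs, with CACGTG in capitals.
Max, chr12:76962199-76962498, minus strand: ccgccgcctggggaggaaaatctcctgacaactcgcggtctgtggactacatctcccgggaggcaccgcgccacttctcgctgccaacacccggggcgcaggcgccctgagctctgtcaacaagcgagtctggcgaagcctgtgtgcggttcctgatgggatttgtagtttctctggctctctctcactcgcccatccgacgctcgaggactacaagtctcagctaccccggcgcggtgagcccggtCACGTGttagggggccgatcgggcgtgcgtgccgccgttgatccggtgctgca
Mxd4, chr5:34187661-34187960, minus strand: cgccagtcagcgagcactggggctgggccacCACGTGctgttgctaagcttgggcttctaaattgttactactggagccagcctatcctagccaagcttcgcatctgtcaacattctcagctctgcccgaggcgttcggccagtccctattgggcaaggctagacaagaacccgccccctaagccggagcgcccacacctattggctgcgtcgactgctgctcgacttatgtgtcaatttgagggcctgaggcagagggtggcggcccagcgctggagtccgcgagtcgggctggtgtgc
Mnt, chr11:74830674-74830973, plus strand: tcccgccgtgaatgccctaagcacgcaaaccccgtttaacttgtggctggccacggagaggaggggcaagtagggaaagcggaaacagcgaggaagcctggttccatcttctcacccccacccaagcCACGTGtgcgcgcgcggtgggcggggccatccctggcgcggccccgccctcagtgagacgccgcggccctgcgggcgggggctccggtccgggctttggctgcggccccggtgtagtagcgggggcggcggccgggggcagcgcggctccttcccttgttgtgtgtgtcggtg
In Max the motif began 3 bases before the RefSeq start (position -3), in Mnt at position -123 and in Mxd4 at position -219. The related E-box CACGCG, searched on both strands, was found in the window of Mga at position -21 and in 9.27% of all windows. The E2F-type sequence TTCCCGC, also searched on both strands, was found in the window of Mxd3 at position -136 and in 4.6% of all windows. These are letter matches, which say nothing of binding.

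Library totals ran from 67333490 to 76891786 counts in stimulated libraries and from 63266477 to 72128433 in resting libraries. Levels are given as CPM, the count of a gene per library total with the total scaled by TMM factors of 0.874 to 0.902 in stimulated and 1.06 to 1.16 in resting libraries. Pkm, which encodes both PKM1 and PKM2, checks the labels: it averaged 1052 ± 14.6 CPM in KO stimulated and 2485 ± 35.5 CPM in WT stimulated cells, and 185 ± 11.7 CPM in KO resting and 455 ± 47.4 CPM in WT resting cells (SD, n = 3 each). Xist stood at 941 to 1130 CPM in stimulated libraries and 0.0496 to 0.0867 CPM in resting libraries, while Ddx3y had 0 counts in the stimulated libraries and 143 to 167 CPM in the resting libraries. Stimulation therefore cannot be told apart from the sex of the mice or from the deposited table, which also split by condition. Cd4 measured 353 to 405 CPM in stimulated and 633 to 911 CPM in resting libraries, and Cd3e 212 to 230 CPM and 270 to 324 CPM. Markers of other cells were present in every group. The 12 B cell markers summed to 883 to 918 CPM in KO stimulated, 462 to 707 CPM in WT stimulated, 1620 to 1850 CPM in KO resting and 1270 to 2240 CPM in WT resting libraries. The 8 myeloid markers summed to 23.9 to 28.7, 11.2 to 18.9, 679 to 697 and 728 to 1830 CPM in the same order of groups, and the 7 erythroid markers to 15.6 to 27.0, 20.5 to 79.9, 130 to 1460 and 56.3 to 1500 CPM. The 2 CD8 T cell markers summed to 31.7 to 36.4, 17.3 to 24.0, 42.9 to 61.1 and 43.3 to 45.3 CPM, and the 4 natural killer markers to 22.1 to 32.1, 16.6 to 23.6, 66.9 to 85.9 and 78.2 to 97.3 CPM. The 4 neutrophil markers reached at most 9.88, 14.4, 74.4 and 122 CPM, and the 4 dendritic markers summed to 11.7 to 12.9, 6.07 to 9.70, 35.7 to 47.0 and 32.0 to 71.9 CPM. The 8 CD4 T cell markers summed to 2230 to 2300 CPM in both stimulated groups, 3290 to 3610 CPM in KO resting and 2930 to 3640 CPM in WT resting libraries. No marker gene was at 0 in all libraries of a group. In such bulk samples, fewer cells of a type and less RNA per cell cannot be told apart.

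Between stimulated and resting libraries, 7 of the 9 members differed in each genotype. Here and below, rose and fell on stimulation mean higher and lower in stimulated than in resting libraries, which also differ in sex and table. Myc, Max and Mxd3 rose, and Mxd4, Mnt, Mxd1 and Mxi1 fell. Myc and Mxd4 moved most in opposite directions among the well expressed members: Myc transcripts were 7.56-fold higher in KO and 8.76-fold higher in WT stimulated cells, while Mxd4 was 14.7-fold lower in KO and 21.8-fold lower in WT stimulated cells. Of all 17460 genes tested, 39.6% rose and 43.2% fell in KO cells, and 39.3% rose and 44.8% fell in WT cells (82.9% and 84.1% in either direction), so the share of members called was near that of all genes. The median log2 fold change of all genes was -0.11 in KO and -0.14 in WT cells, close to the values of Mxi1 (-0.13 and -0.12). Stimulated and resting libraries did not overlap for 86.6% of all genes in KO and 84.7% in WT cells. The lack of overlap given for members below was therefore common among all genes.

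Myc, the activating partner, had the highest level of the 9 in stimulated cells. Myc (chromosome 15, 61985391 to 61990374, plus strand, mm10) measured 498, 485 and 476 CPM in the KO stimulated libraries and 477, 536 and 518 CPM in the WT stimulated libraries, against 60.05, 67.5 and 65.2 CPM in the KO resting and 59.3, 54.8 and 60.8 CPM in the WT resting libraries. Every stimulated library lay far above every resting library. The log2 fold change on stimulation was 2.92 ± 0.06 (SE) in KO cells (adjusted p = 4.1e-13) and 3.13 ± 0.06 in WT cells (adjusted p = 2.3e-13; edgeR quasi-likelihood F-test with Benjamini-Hochberg adjustment, as for all adjusted p-values below). Mycn, the paralogue used mainly in embryonic tissue, was barely present, at means of 0.247 CPM in KO stimulated, 0.312 CPM in WT stimulated, 0.262 CPM in KO resting and 0.187 CPM in WT resting cells. Its libraries overlapped between stimulated and resting cells, and its log2 fold changes of -0.09 ± 0.43 in KO and 0.73 ± 0.43 in WT cells did not pass the test (adjusted p = 0.85 and 0.13). Without WT resting library 1, the highest of its group at 0.303 CPM, the WT value was 1.27 and passed (adjusted p = 0.0212, against 0.0212 to 0.329 over the fits that left out a library); without both resting libraries numbered 1 it was also 1.27 (adjusted p = 0.0266).

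Max (chromosome 12, 76937269 to 76962201, minus strand), the shared partner of the other members, measured 216, 217 and 210 CPM in KO stimulated and 231, 243 and 233 CPM in WT stimulated libraries, against 101, 109 and 107 CPM in KO resting and 123, 123 and 132 CPM in WT resting libraries. Stimulated and resting libraries were apart in both genotypes. The log2 fold change was 1.02 ± 0.04 in KO cells (adjusted p = 1.5e-10) and 0.90 ± 0.04 in WT cells (adjusted p = 4.8e-10).

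**Figure D1:**
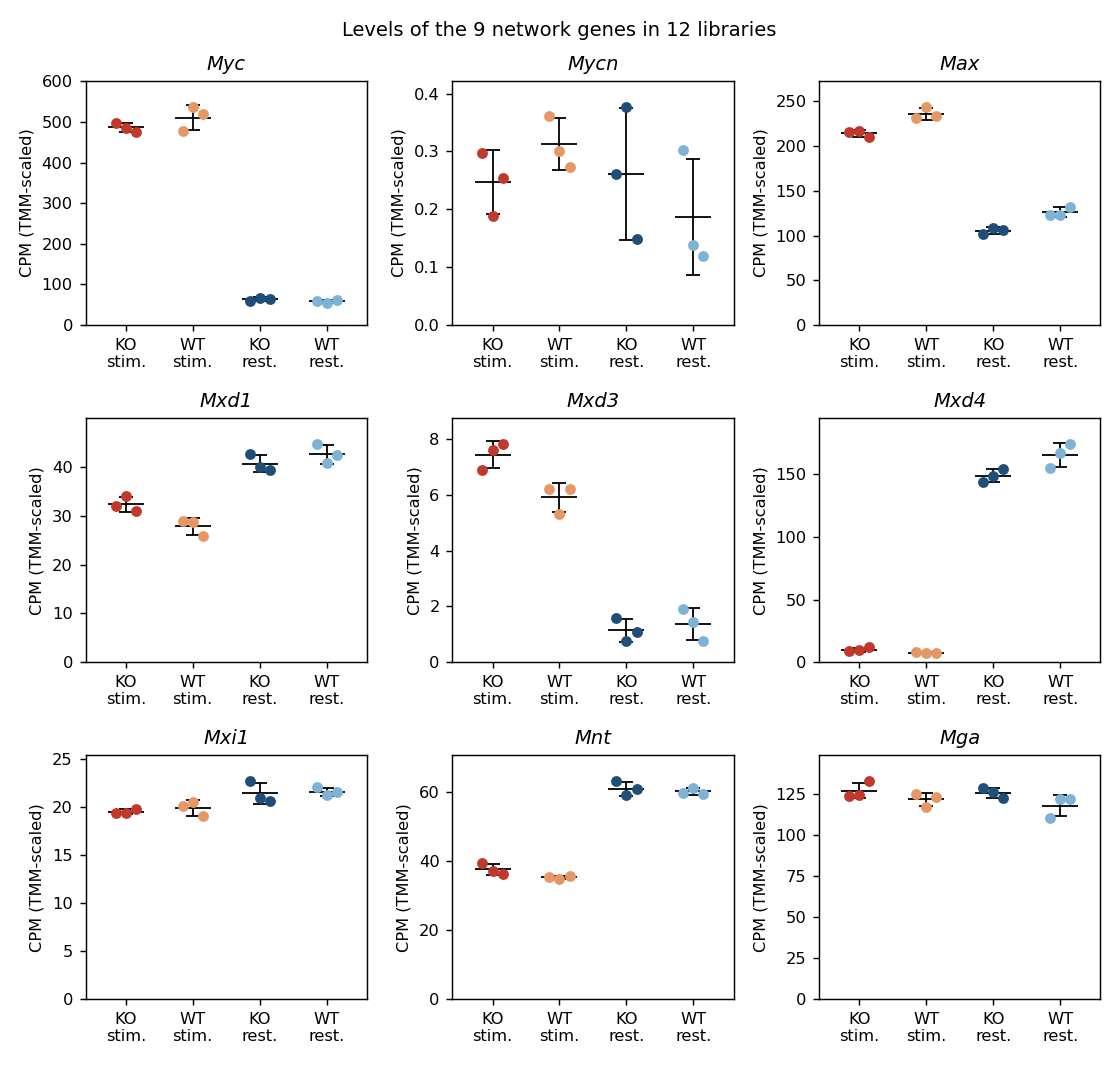
Levels of the 9 network genes in each library, in TMM-scaled CPM on a linear axis from 0, with points for the 3 libraries of each group, a bar for the mean and error bars for the SD. Myc, Max and Mxd3 are high in the stimulated groups, Mxd4, Mnt and Mxd1 are high in the resting groups, and Mga is level across the 4 groups.

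Among the antagonists, the members did not move together. Mxd4 (chromosome 5, 34173883 to 34187720, minus strand), the MXD protein linked with resting and differentiated cells, measured 9.04, 9.44 and 11.9 CPM in KO stimulated and 8.003, 7.43 and 7.29 CPM in WT stimulated libraries, against 144, 148 and 154 CPM in KO resting and 155, 167 and 174 CPM in WT resting libraries. The resting libraries were higher throughout. The log2 fold change was -3.88 ± 0.09 in KO cells (adjusted p = 9.2e-13) and -4.45 ± 0.10 in WT cells (adjusted p = 3.6e-13). An antisense gene on the other strand of Mxd4, Gm42846, had 0 to 1 counts per library. Mnt (chromosome 11, 74830920 to 74845725, plus strand), the most widely expressed MYC antagonist, measured 39.4, 37.3 and 36.4 CPM in KO stimulated and 35.4, 34.9 and 35.9 CPM in WT stimulated libraries, against 63.1, 59.1 and 60.9 CPM in KO resting and 59.9, 61.2 and 59.5 CPM in WT resting libraries. Its fall was smaller than that of Mxd4, with log2 fold changes of -0.70 ± 0.04 in KO (adjusted p = 3.5e-09) and -0.77 ± 0.04 in WT cells (adjusted p = 1.2e-09), and again no stimulated library reached a resting library.

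Mxd1 (chromosome 6, 86647042 to 86669161, minus strand), first known as MAD1 and induced in many cells as they differentiate, measured 32.0, 34.0 and 31.0 CPM in KO stimulated and 28.9, 28.6 and 25.8 CPM in WT stimulated libraries, against 42.7, 39.9 and 39.4 CPM in KO resting and 44.6, 40.7 and 42.5 CPM in WT resting libraries. The groups did not overlap by condition. Mxd1 had log2 fold changes of -0.33 ± 0.06 in KO cells (adjusted p = 0.00015) and -0.62 ± 0.06 in WT cells (adjusted p = 4.3e-07). The myeloid and B cell marker sums given above were also lower in the stimulated libraries, and their part in the lower Mxd1, Mnt and Mxd4 levels was not tested.

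Mxd3 (chromosome 13, 55325168 to 55329823, minus strand), the MXD member known from dividing progenitor cells, went the other way from Mxd1 and Mxd4. It measured 6.89, 7.62 and 7.81 CPM in KO stimulated and 6.22, 5.30 and 6.20 CPM in WT stimulated libraries, against 1.59, 0.766 and 1.08 CPM in KO resting and 1.89, 1.44 and 0.768 CPM in WT resting libraries. The log2 fold change was 2.7 ± 0.31 in KO (adjusted p = 4.2e-06) and 2.11 ± 0.30 in WT cells (adjusted p = 3.1e-05), with no overlap between conditions. This value is uncertain, because 105 bp of Mxd3 exon overlap exons of Prelid1 on the other strand and it is not given whether counting used the strand. Prelid1, a mitochondrial lipid transfer gene, had 17245 to 20667 counts in stimulated and 9261 to 10504 counts in resting libraries, so it was higher in stimulated cells as well, and its part in the Mxd3 counts was not tested.

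Mxi1 (chromosome 19, 53310518 to 53375810, plus strand) and Mga (chromosome 2, 119897228 to 119969581, plus strand) were the steadiest well expressed members. Mxi1, also known as MXD2, measured 19.3 to 19.8 CPM in KO stimulated and 19.0 to 20.5 CPM in WT stimulated libraries, against 20.6 to 22.6 CPM in KO resting and 21.2 to 22.02 CPM in WT resting libraries. Stimulated libraries lay just below resting libraries, with log2 fold changes of -0.13 ± 0.05 in KO (adjusted p = 0.026) and -0.12 ± 0.05 in WT cells (adjusted p = 0.043). Both lay near the median of all genes (-0.11 in KO and -0.14 in WT cells), so Mxi1 moved about as a typical gene did. The WT value missed the threshold in 5 of the 6 fits that left out a library and the KO value in 4 of 6; the KO value was -0.09 without KO resting library 1 and -0.07 without both resting libraries numbered 1. Mga averaged 127 CPM in KO stimulated and 122 CPM in WT stimulated cells, and 126 CPM in KO resting and 118 CPM in WT resting cells. The Mga libraries of the 2 conditions overlapped in each genotype, and its log2 fold changes of 0.02 ± 0.05 in KO (adjusted p = 0.77) and 0.05 ± 0.05 in WT cells (adjusted p = 0.40) did not pass the test. With library totals in place of TMM scaling, a choice that also moved the median of all genes to -0.44 in KO and -0.47 in WT cells, Mga turned to -0.31 in KO and -0.29 in WT cells and passed (adjusted p = 9e-05 and 0.00015), against adjusted p-values of 0.187 to 1.00 over the fits that left out a library. Under that scaling 5537 genes rose and 9110 fell in KO cells, against 6917 and 7550 with TMM factors.

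**Figure D2:**
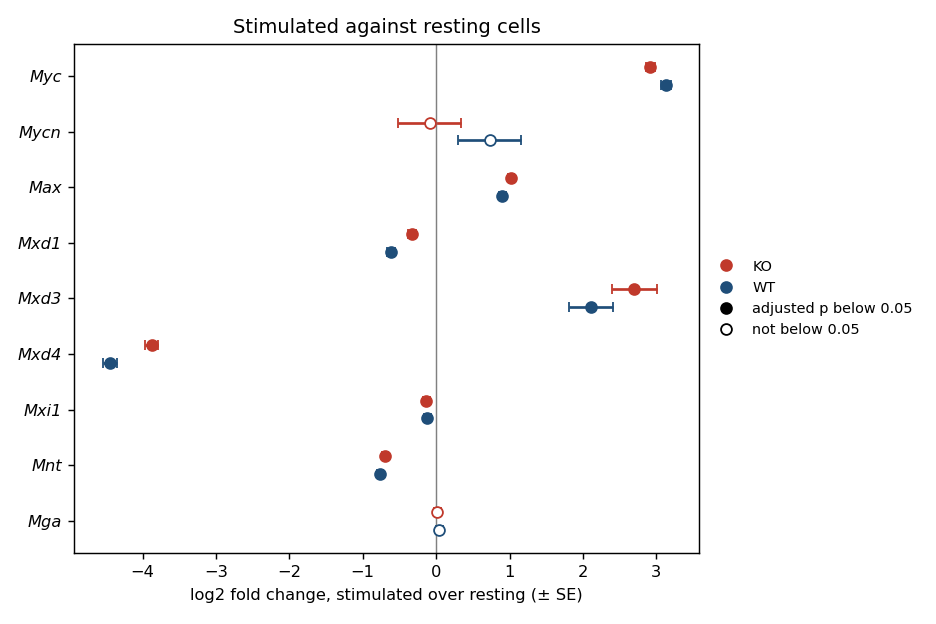
Log2 fold change of stimulated over resting cells with its SE for each network gene, in KO (red) and WT (blue) cells, where filled points passed an adjusted p of 0.05. Myc stands at 2.92 and 3.13, Mxd4 at -3.88 and -4.45, and the genotypes share the sign for every gene except Mycn, which did not pass in either.

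Divided by the length of all annotated exons of a gene, the levels can be set beside each other between genes, but only roughly. These lengths ran from 2369 bp for Mxd3 to 15340 bp for Mga, and the lengths of the transcripts in use were not measured. The order here and the shares and ratio below rest on these lengths. In stimulated cells Myc led, at 179 CPM per kb in KO and 188 CPM per kb in WT cells, followed by Max at 59.5 and 65.6 CPM per kb. Mga and Mnt came next and overlapped with each other in both genotypes (8.28 and 8.15 CPM per kb in KO, 7.93 and 7.65 CPM per kb in WT), and Mxd4 was the lowest but for Mycn, at 1.19 CPM per kb in KO and 0.893 CPM per kb in WT cells. In resting cells Max led, at 29.3 CPM per kb in KO and 35.1 CPM per kb in WT cells. Myc followed at 23.7 and 21.5 CPM per kb and Mxd4 at 17.5 and 19.5 CPM per kb; their libraries overlapped in WT cells and not in KO cells. Mnt, Mga, Mxd1, Mxi1, Mxd3 and Mycn came after them in that order in both genotypes, each apart from the next.

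As a share of the summed CPM per kb of the 9 genes, Myc made up 67.1% in KO stimulated and 67.2% in WT stimulated cells, and 23.3% in KO resting and 20.2% in WT resting cells. Max held 22.3% and 23.5% in KO and WT stimulated cells, and 28.9% and 32.9% in KO and WT resting cells. Mxd4 held 0.448% and 0.320% in KO and WT stimulated cells, and 17.3% and 18.3% in KO and WT resting cells. The transcript makeup held more Myc and less Mxd4 and Mnt in stimulated cells, with Mnt at 3.05% and 2.74% in KO and WT stimulated cells, and at 13.0% and 12.2% in KO and WT resting cells. The summed CPM per kb of the 6 antagonists was 28.2 ± 0.277 in KO stimulated, 25.8 ± 0.548 in WT stimulated, 48.3 ± 0.751 in KO resting and 49.9 ± 1.07 in WT resting cells (SD, n = 3 each). Myc and Mycn together were 6.35 ± 0.21 times this sum in KO stimulated and 7.29 ± 0.586 times in WT stimulated cells, and 0.492 ± 0.0369 times in KO resting and 0.431 ± 0.0257 times in WT resting cells. The ratio ran from 6.15 to 6.57 in KO stimulated and 6.65 to 7.79 in WT stimulated libraries. It ran from 0.453 to 0.526 in KO resting and 0.402 to 0.450 in WT resting libraries. These ranges did not overlap between genotypes, by a narrow margin in resting cells. Among all single genes, 28.0% had no such overlap in stimulated and 19.9% in resting cells. Myc itself overlapped between genotypes in both conditions, and the antagonist sum includes the uncertain Mxd3 value. The ratio is a description of transcripts, made after earlier results were known, and carries no test.

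**Figure D3:**
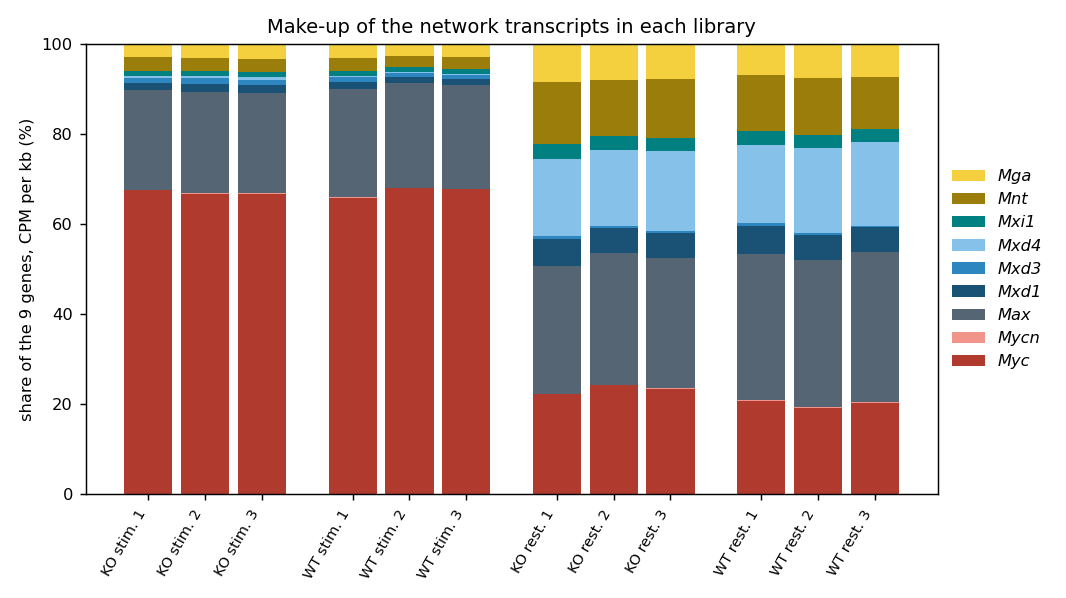
Share of each network gene in the summed CPM per kb of the 9 genes, in percent, with a stacked bar for each of the 12 libraries. Myc takes 65.9% to 68.0% in the 6 stimulated libraries and 19.3% to 24.2% in the 6 resting libraries, where the Mxd4 and Mnt bands widen.

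In stimulated cells, KO against WT, 3 members passed the test, all with small changes: Mxd4 and Mxd1 rose in KO and Max fell. Of 15090 genes tested, 4.76% were called, 3.37% higher and 1.40% lower in KO (508 and 211 genes, and 567 and 120 with library totals in place of TMM scaling). Mxd4 at 10.1 ± 1.53 CPM in KO stimulated and 7.57 ± 0.377 CPM in WT stimulated cells had a log2 fold change of 0.43 ± 0.10 (adjusted p = 0.047). Mxd1 at 32.3 ± 1.56 CPM in KO stimulated and 27.8 ± 1.71 CPM in WT stimulated cells had one of 0.23 ± 0.06 (adjusted p = 0.049). Max at 214 ± 3.64 CPM in KO stimulated and 236 ± 6.49 CPM in WT stimulated cells had one of -0.13 ± 0.03 (adjusted p = 0.038; SD, n = 3 each). In each of the 3 genes, every KO library lay on the same side of every WT library. Mxd3 and Mnt also lay higher in every KO stimulated than in every WT stimulated library without passing the test, at log2 fold changes of 0.34 ± 0.09 (adjusted p = 0.07) and 0.10 ± 0.04 (adjusted p = 0.22). Over all genes, 28.0% had no overlap in this comparison.

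The 3 calls stood close to the threshold. Mxd4 missed it in each of the 6 fits that left out a library (adjusted p = 0.0694 to 0.149), with log2 fold changes of 0.30 without KO stimulated library 3, which was the highest at 11.9 CPM, to 0.50 without KO stimulated library 1. Mxd1 and Max missed it in 5 of 6, all but the fit without WT stimulated library 2 (adjusted p = 0.0298 to 0.196 for Mxd1 and 0.0265 to 0.134 for Max). DESeq2 called 3 members higher and 1 lower in KO stimulated cells, and 726 higher and 407 lower of 15090 genes. B cell, myeloid, dendritic and CD8 T cell markers were each higher in every KO stimulated than in every WT stimulated library, by the sums given above, and their part in the Mxd1 and Mxd4 differences was not tested.

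Myc itself was at 486 ± 11.4 CPM in KO stimulated and 510 ± 30.5 CPM in WT stimulated cells (SD, n = 3 each). Its log2 fold change of -0.06 ± 0.04 did not pass the test (adjusted p = 0.43), and KO library 1 and 2 lay above WT library 1. Mga (0.07 ± 0.04, adjusted p = 0.35), Mxi1 (-0.02 ± 0.05, adjusted p = 0.86) and Mycn (-0.34 ± 0.31, adjusted p = 0.59) did not pass either, and their libraries overlapped.

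In resting cells, KO against WT, edgeR called 0 members, as it called only 6 of 16637 genes (0.0361%; 0.018% higher and 0.018% lower). At an unadjusted p under 0.05 there were 3 members (Myc, Max and Mxd4) and 2284 genes in all (13.7%). DESeq2 called 1 member and 518 of 16637 genes in all, far more genes than edgeR. That member was Max, the resting difference with the smallest p among the 9. Max averaged 105 ± 3.82 CPM in KO resting and 126 ± 5.24 CPM in WT resting cells, a log2 fold change of -0.27 ± 0.05 (adjusted p = 0.17). Its adjusted p was 1.35e-05 by DESeq2 and 0.0255 in a fit of all 12 libraries, and ran from 0.0705 to 0.683 when a library was left out. Every KO resting library lay below every WT resting library for Max and for Mxd4, and above for Mga; over all genes 19.9% had no overlap. Myeloid markers also summed to less in every KO resting than in every WT resting library, by the ranges given above, and their part in these differences was not tested. Mxd4 averaged 149 ± 5.00 CPM in KO resting and 165 ± 9.61 CPM in WT resting cells, a log2 fold change of -0.16 ± 0.05 (adjusted p = 0.32). Myc averaged 64.3 ± 3.84 CPM in KO resting and 58.3 ± 3.14 CPM in WT resting cells (SD, n = 3 each), a log2 fold change of 0.13 ± 0.06 (adjusted p = 0.36), and its libraries overlapped. For Mxd1, Mxi1 and Mnt the log2 fold changes lay between -0.08 and 0.01 with SEs of 0.05 to 0.06. Mxd3 (-0.27 ± 0.40) and Mycn (0.46 ± 0.50) had wide errors: the resting libraries had 58 to 150 counts of Mxd3 and 9 to 30 counts of Mycn, and the Mxd3 level varied by 36.3% of its mean between KO resting and 41.3% between WT resting libraries. In both resting groups the library numbered 1 had the highest Mxd3 level and the highest erythroid marker sum (1456 CPM in KO and 1503 CPM in WT), and the part of erythroid transcripts in this scatter was not tested.

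**Figure D4:**
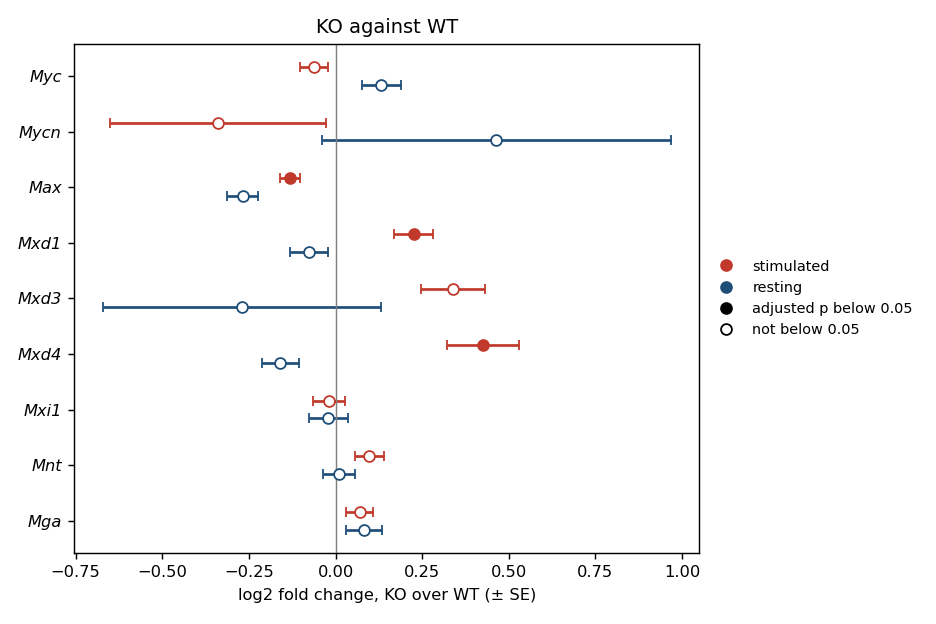
Log2 fold change of KO over WT cells with its SE for each network gene, in stimulated (red) and resting (blue) cells, where filled points passed an adjusted p of 0.05. Max lies below 0 in both conditions, at -0.13 and -0.27, and Mxd4 lies above 0 in stimulated (0.43) and below 0 in resting cells (-0.16).

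The difference between the genotypes' responses to stimulation, KO minus WT, passed for 0 members by edgeR and for 121 of 17460 genes (0.693%; 97 or 0.556% higher and 24 or 0.137% lower, and 87 and 38 with DESeq2 size factors). At an unadjusted p under 0.05 there were 3 members (Myc, Mxd1 and Mxd4) and 2772 genes in all (15.9%). DESeq2 called 1 member and 1003 of 17460 genes in all. For Mxd4 the difference was 0.57 ± 0.12 on the log2 scale (adjusted p = 0.059), so its fall on stimulation was 3.88 in KO and 4.45 in WT cells on that scale. Over the alternatives its adjusted p ran from 0.0295 to 0.148 when a library was left out, with 2 of 12 such fits passing, those without WT resting library 1 or 3, and it was 0.00137 by DESeq2. For Mxd1 the difference was 0.29 ± 0.08 (adjusted p = 0.12), and for Myc -0.21 ± 0.08 (adjusted p = 0.24). Max differed by 0.12 ± 0.06 (adjusted p = 0.37), Mnt, Mga and Mxi1 by between -0.03 and 0.07, Mxd3 by 0.59 ± 0.41 and Mycn by -0.82 ± 0.61.

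Genes that MYC is known to induce rose together on stimulation. All 60 listed targets, from ribosome assembly, polyamine and nucleotide synthesis, glycolysis and iron uptake, passed the test upward in KO and in WT cells. Of all genes, 39.6% rose in KO and 39.3% in WT cells. The list was chosen with earlier results of these data known. Its median log2 fold changes were 2.35 in KO and 2.51 in WT cells. Without a library, 59 to 60 passed in KO and 60 in WT cells. The transferrin receptor Tfrc rose 17.7-fold in KO and 23.4-fold in WT cells (log2 fold change 4.14 ± 0.31 and 4.55 ± 0.32). The hexokinase Hk2 rose 23.5-fold in KO and 20.1-fold in WT cells, and spermidine synthase, Srm, rose 15.7-fold in KO and 18.7-fold in WT cells. Odc1, the first enzyme of polyamine synthesis, rose 15.3-fold in WT cells, and from 71.2 ± 14.7 to 1010 ± 35.9 CPM in KO cells. The mitochondrial chaperonin Hspd1 rose 16.2-fold in KO cells, and from 192 ± 18.1 to 2910 ± 82.9 CPM in WT cells (means with SD).

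Between genotypes the changes in the targets were small. In stimulated cells 5 of the 60 were called lower in KO and 0 higher, against 1.40% lower and 3.37% higher of all genes. The median log2 fold change was -0.07, against 0.00 over all genes, with 5 of 60 above 0. The 5 called genes were Hk2 at 181 ± 7.14 CPM in KO stimulated and 214 ± 5.11 CPM in WT stimulated cells (-0.23 ± 0.03, adjusted p = 0.0079), Tfrc (-0.18 ± 0.04, adjusted p = 0.032), the glucose transporter Slc2a1 (-0.16 ± 0.03, adjusted p = 0.021), the ribosome assembly factor Noc4l (-0.15 ± 0.03, adjusted p = 0.02) and lactate dehydrogenase Ldha (-0.12 ± 0.03, adjusted p = 0.039). At an unadjusted p under 0.05 there were 23, all lower in KO, against 20.6% of all genes in either direction. DESeq2 called 7, all lower, against 407 of 15090 genes called lower. Without a library the count was 3 (WT stimulated 1), 8 (WT stimulated 2), 1 (WT stimulated 3), 1 (KO stimulated 1), 0 (KO stimulated 2) and 1 (KO stimulated 3), and it was 0 in a fit of all 12 libraries. In resting cells the median was 0.09, with 51 of 60 above 0; edgeR called 0. An unadjusted p under 0.05 was found for 9, of which 7 were higher and 2 lower in KO, against 13.7% of all genes. DESeq2 called 1, lower in KO, against 387 of 16637 genes called lower. The difference between responses passed for 1 target, Noc4l (-0.27 ± 0.05, adjusted p = 0.041), against 0.137% of all genes called lower. Its median over the targets was -0.16 with 57 of 60 below 0. An unadjusted p under 0.05 was found for 19, all lower, against 15.9% of all genes in either direction. The count that passed was 26 without WT resting library 3, where 1646 of 17900 genes passed (741 lower). It was 1 without WT resting library 1, where 238 genes passed (40 lower), and 0 without any 1 of the other 10 libraries. DESeq2 called 5, against 397 of 17460 genes called lower. The comparisons within each condition and the difference of responses share their libraries, so these medians are not separate evidence.

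Genes that MYC is known to repress did not follow a common course. Of 7, 1 rose and 4 fell on stimulation in each genotype. Of all genes, 39.6% rose and 43.2% fell in KO cells, and 39.3% rose and 44.8% fell in WT cells. Without WT resting library 3, 2 of the 7 rose in WT cells. The cell cycle inhibitor Cdkn1a (p21) rose 27.1-fold in KO and 24.7-fold in WT cells. Another cell cycle inhibitor, Cdkn1b (p27), fell by 2.94 ± 0.06 in KO and by 3.25 ± 0.06 in WT cells on the log2 scale, and the stress gene Gadd45a fell by 1.79 ± 0.19 and by 2.22 ± 0.19. Gas1 had 0 counts in the stimulated libraries and 6 to 18 counts in the resting libraries, and no fold is given. In KO against WT stimulated cells 1 of 6 tested passed, higher in KO, against 3.37% of all genes called higher. It was the hypoxia and stress gene Ndrg1, at 21.3 ± 0.262 CPM in KO stimulated and 17.2 ± 1.19 CPM in WT stimulated cells (SD, n = 3 each, log2 fold change 0.32 ± 0.05, adjusted p = 0.013). Ndrg1 missed the threshold without any 1 of the 3 KO stimulated libraries and in the fit of all 12 libraries. In resting cells and for the difference of responses edgeR called 0 of these genes, with 2 and 1 at an unadjusted p under 0.05. DESeq2 called 2 and 1 of them, and 518 and 1003 genes in all. Without WT resting library 1 or 3 the difference of responses passed for 1, and for 238 or 1646 genes in all.

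**Figure D5:**
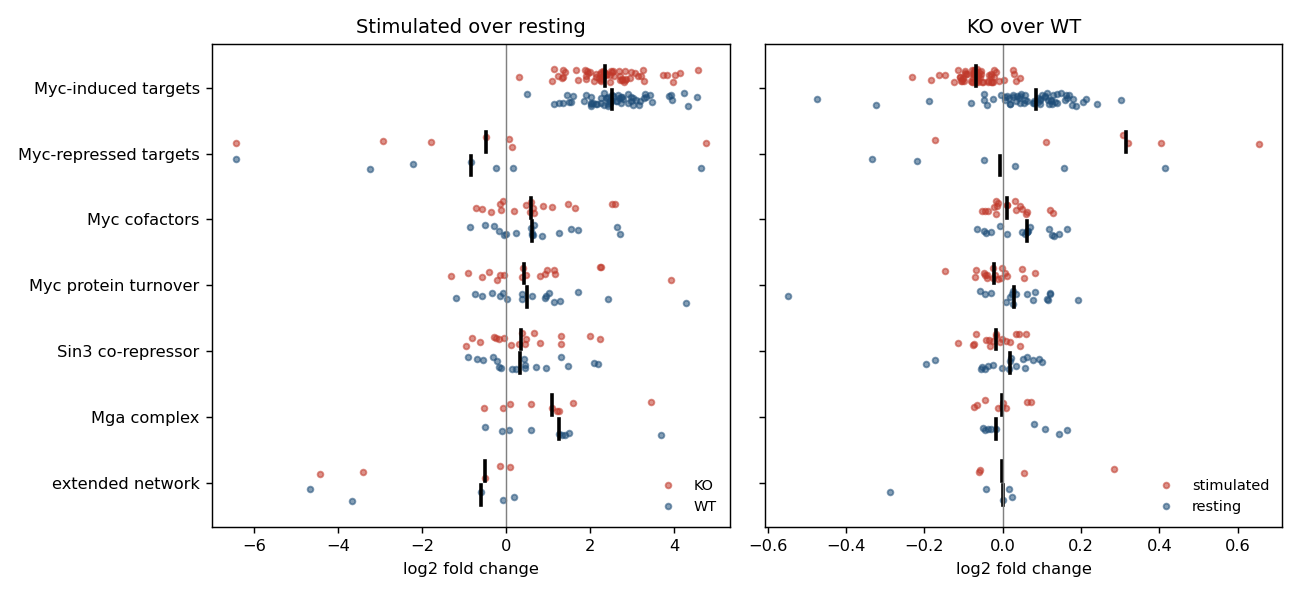
Log2 fold changes of the genes in 7 lists around the network, stimulated over resting on the left (KO red, WT blue) and KO over WT on the right (stimulated red, resting blue), with a point for each gene and a black line for the list's median. The 60 Myc-induced targets all lie above 0 on the left, with medians of 2.35 in KO and 2.51 in WT cells, and Gas1, with 0 counts in stimulated libraries, is drawn at its fitted value near the left edge.

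Genes for proteins that work with the network moved in both directions on stimulation, as did all genes (39.6% rose and 43.2% fell in KO, 39.3% and 44.8% in WT cells), and no difference from all genes was tested. Of 18 SIN3 co-repressor genes, 10 rose and 6 fell in KO, and 10 rose and 7 fell in WT cells (medians 0.34 and 0.32); over the alternatives the count that rose went down to 8 and the count that fell went up to 8 in each genotype. Sap30 rose by 2.24 ± 0.06 in KO and 2.17 ± 0.06 in WT cells on the log2 scale, the histone chaperone Rbbp7 by 2.00 ± 0.06 and 2.08 ± 0.06, and the deacetylase Hdac2 by 1.3 ± 0.05 and 1.48 ± 0.05. Of 9 genes of the MGA complex, 6 rose and 1 fell in each genotype, or 2 fell in WT cells without WT resting library 1 and 3 fell in each genotype with library totals in place of TMM scaling (medians 1.09 in KO and 1.25 in WT cells), while Mga itself did not pass. Tfdp1, a partner of E2F factors, rose by 3.45 ± 0.09 in KO and 3.67 ± 0.09 in WT cells, and E2f6 by 1.58 ± 0.05 and 1.48 ± 0.05. Of 18 MYC cofactors, 12 rose and 4 fell in each genotype, or up to 7 fell in KO cells over the alternatives (medians 0.58 in KO and 0.61 in WT cells), led by the AAA+ ATPases Ruvbl1 (2.59 ± 0.06 in KO and 2.71 ± 0.06 in WT cells) and Ruvbl2 (2.51 ± 0.06 and 2.63 ± 0.06). Wdr5, which holds MYC at chromatin, rose by 1.63 ± 0.04 in KO and 1.71 ± 0.05 in WT cells.

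Of 18 genes for MYC protein turnover, 11 rose and 6 fell in KO, and 11 rose and 4 fell in WT cells (medians 0.43 and 0.50); over the alternatives as few as 9 rose and as many as 7 fell in each genotype. The kinase Aurka rose 15.1-fold in KO and 19.3-fold in WT cells, and the ubiquitin ligase subunit Skp2 rose 4.70-fold and 3.24-fold. The deubiquitinase Usp28 had a log2 fold change of -1.31 ± 0.07 in KO cells. In WT cells it averaged 26.5 ± 0.388 CPM when stimulated and 61.0 ± 6.9 CPM when resting (means with SD). In the extended network of 5 genes, 0 rose and 3 fell in KO and 1 rose and 3 fell in WT cells; the gene that rose was the paralogue Bmyc (0.17 ± 0.06), which missed the threshold without WT resting library 3. Mycl, a further MYC paralogue, fell by 4.43 ± 0.30 in KO and 4.67 ± 0.31 in WT cells, and Mlxip (MondoA), a glucose-sensing factor that pairs with MLX, fell by 0.52 ± 0.05 and 0.60 ± 0.05. Mlxipl (ChREBP) had 0 to 4 counts in stimulated and 16 to 42 counts in resting libraries.

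Between genotypes, 1 gene of these 5 lists passed in stimulated cells, against 4.76% of all genes. It was Aurka, at 58.5 ± 1.64 CPM in KO stimulated and 65.1 ± 0.533 CPM in WT stimulated cells (SD, n = 3 each, log2 fold change -0.15 ± 0.03, adjusted p = 0.039). It missed the threshold in 5 of the 6 fits that left out a library, all but the fit without WT stimulated library 2. None of the SIN3, MGA complex, cofactor and extended network genes was called by edgeR or by DESeq2 in KO against WT stimulated or resting cells, with 2, 0, 1 and 0 at an unadjusted p under 0.05 in stimulated and 1, 1, 4 and 0 in resting cells. Among those with the highest levels, Rbbp4 differed by -0.01 ± 0.03 in stimulated and -0.04 ± 0.05 in resting cells on the log2 scale, and Hcfc1 by -0.02 ± 0.06 and 0.12 ± 0.06. For the turnover genes in resting cells, edgeR and DESeq2 called 0 and 0 had an unadjusted p under 0.05. The difference of responses was called by edgeR for 0 genes of these 5 lists. The SIN3, MGA complex, cofactor, turnover and extended network lists held 1, 2, 1, 1 and 0 at an unadjusted p under 0.05. DESeq2 called 1 turnover gene, and 1003 of 17460 genes in all. Without WT resting library 3 the calls were 1, 1, 1, 3 and 0 in the same order, and 1646 of 17900 genes in all.

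The genes most like a member over the 12 libraries were sought by Pearson's r of log2 CPM among 10411 genes. The 12 points share their condition, so these values are a description with no p. Mrps18a, a mitochondrial ribosomal protein gene, followed Myc at r = 0.9999, with 56.5 ± 0.0983 CPM in KO stimulated, 58.0 ± 2.21 CPM in WT stimulated, 19.1 ± 0.748 CPM in KO resting and 18.2 ± 0.276 CPM in WT resting cells. Psmd12, a proteasome subunit, and Rpl7l1 followed Myc at 0.9997 each. Mxd4 was followed by AW011738 (0.9993), Rnf166 (0.9988) and the glucocorticoid receptor gene Nr3c1 (0.9987), which averaged 66.4 ± 3.01 CPM in KO stimulated, 58.5 ± 2.93 CPM in WT stimulated, 161 ± 1.84 CPM in KO resting and 163 ± 4.79 CPM in WT resting cells. The genes nearest to Mxd1 were the interferon-induced Rsad2 (0.987), Slc31a2 (0.984) and the macrophage scavenger receptor Msr1 (0.981), which averaged 0.957 ± 0.315 CPM in KO stimulated, 0.419 ± 0.216 CPM in WT stimulated, 4.0 ± 0.0553 CPM in KO resting and 7.12 ± 2.32 CPM in WT resting cells. Likeness to Mxi1 was weaker, at 0.942 for Amigo1, 0.936 for Tmem86b and 0.933 for Zbtb16.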

How the data were processed

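Polyadenylated RNA of 12 libraries was sequenced from a stranded kit, per the labels' protocols. Expected counts per gene from RSEM were deposited by the authors without normalization, in a table for the resting and a table for the stimulated libraries, each with 55450 genes. Build mm10 and the tools RSEM 1.3.1, STAR 2.7.0f, cutadapt 1.18 and bcl2fastq 2.20 are named in the submitters' processing notes; use of the strand in counting is not stated there. Library letters in the labels assigned the columns.

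Expected counts were rounded (about 7% of values were not whole: 6.87% to 7.18% per library), kept where filterByExpr passed them (at least 10 counts in enough libraries, 15 in total), given TMM factors and analysed in edgeR 4.0.16 in R 4.3.3 (robust quasi-likelihood F-test, Benjamini-Hochberg adjustment over all genes tested, threshold 0.05). KO was compared with WT within the 6 libraries of each condition. Stimulated was compared with resting, and the responses with each other, in a fit of 4 group means over 12 libraries. The SE is the log2 fold change divided by the root of F. CPM come from the 12-library scaling, and CPM per kb use the union of exons in GENCODE M21. DESeq2 1.42.0 was an alternative. The script was tested on simulated data with changes larger than those of the members called in KO against WT stimulated cells. That test therefore does not cover changes as small as theirs. Within each group, no pair of libraries agreed within sampling noise by a chi-square of counts, so none was treated as a copy of another. Each was counted as 1 sample, which does not show that the libraries stand for separate animals.

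The members, the 7 gene lists and the 8 marker lists were chosen with earlier results of these data known. Named are all members and Pkm; from each list up to 4 genes that passed with the greatest change, or up to 2 with the highest level where none passed; and for Myc, Mxd1, Mxd4 and Mxi1 the 3 genes of highest r among genes averaging at least 3 CPM. Ldha, Xist, Ddx3y, Cd4, Cd3e and Prelid1 were named after their values were seen. Some genes that this rule names are not reported here. Promoter windows are from RefSeq.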

Additional observations from a re-analysis of the deposited data

Results flagged for a closer look

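Mxd4 was flagged because its KO and WT libraries lay apart in opposite directions in the 2 conditions. Every KO stimulated library (9.04 to 11.9 CPM) lay above every WT stimulated library (7.29 to 8.003 CPM). Every KO resting library (144 to 154.0 CPM) lay below every WT resting library (154.8 to 174 CPM), by a narrow margin. Over all genes, 28.0% had no overlap between KO and WT in stimulated and 19.9% in resting cells. The test of the difference itself, KO minus WT response, gave 0.57 ± 0.12 on the log2 scale with an adjusted p of 0.059 by edgeR, which missed the threshold of 0.05. Over the other settings that kept all libraries or left out both resting libraries numbered 1, the difference ran from 0.55 to 0.60.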

How the results depend on the processing

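Of 749 values of members under alternative settings, 697 kept their side of the threshold, 38 lost significance and 12 gained it. Another 2 turned sign where the main or the alternative fit passed. Changes of sign where neither fit passed are within the 697, such as Mxd3 in resting KO against WT cells without WT resting library 1 (0.05, against -0.27). The 2 that turned sign with a fit passing were Mga on stimulation with library totals and no TMM factor, at -0.31 in KO and -0.29 in WT cells. In stimulated KO against WT cells, where 2 members passed higher and 1 lower, the higher count was 0 with a non-robust fit, 0 without chromosomes X and Y, 1 in a fit of all 12 libraries and 0 to 1 without a library; the lower count was 0 in the fit of all 12 libraries, 0 with library totals and 0 to 1 without a library. In resting KO against WT cells, where 0 passed, 1 passed lower with DESeq2 and 1 in the fit of all 12 libraries. For the difference of responses, where 0 passed, 1 passed higher with DESeq2, 1 with no low-count filter, 1 with a minimum of 1 CPM in 3 libraries, 1 with library totals and 0 to 1 without a library. The cause of these changes was not tested. Library totals, the chromosomes and the resting libraries numbered 1, which held the most erythroid transcripts, were chosen after seeing the data.

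Replicate numbers do not pair the libraries by any label, and deviations of same-numbered KO and WT libraries correlated at 0.328, -0.111 and 0.274 in resting and at -0.029, 0.005 and 0.021 in stimulated cells. With the replicate number as a block, 2 members were called higher and 1 lower in stimulated KO against WT cells, and 3 members in place of 4 were called lower on stimulation in WT cells.

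Counts of calls over all genes also moved between settings. In stimulated KO against WT cells 719 genes were called, against 1133 with DESeq2, 219 in the fit of all 12 libraries, 997 with the replicate block and 128 to 1408 without a library. In resting cells 6 were called, against 518, 161, 5 and 2 to 18. For the difference of responses 121 were called, against 1003 with DESeq2, 95 with the block and 27 to 1646 without a library; the 1646 came without WT resting library 3. Few counts stand behind Mycn, at 9 to 30 per library.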
